A study of Arabidopsis thaliana with 8 samples.

Results

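ATA27, A9 and AMS are 3 genes of the anther tapetum in *Arabidopsis thaliana*, measured here by 1 probe set each among the 13513 probe sets of the array that are annotated to a single gene. The members were chosen by annotation, after differences between the groups of these same arrays had drawn attention to them. Their levels are therefore given as a description with no test, in all 6 comparisons between groups. ATA27 is AT1G75940 on chromosome 1, A9 is AT5G07230 on chromosome 5 and AMS is AT2G16910 on chromosome 2.

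The RNA came from inflorescences of the Ws accession, with 10 plants pooled, grown in compost in a greenhouse at 18 °C under 16 h of light and harvested, in all groups, at growth stage 6.0. The 8 ATH1 arrays form 4 groups of 2. The T13 line has AT3G47620 (TCP14) interrupted by a T-DNA and the T14 line AT1G69690 (TCP15), HET plants are heterozygous for insertions at both genes, and CON is the control, for which the labels give no modification. TCP14 and TCP15 encode transcription factors of the TCP family. The labels give no zygosity for T13 and T14 and a single line for each gene, so an effect of the insertion and other differences of that line cannot be told apart. No label states that replicate arrays used different plant pools, and HET replicate 2 is called a repeat in its title, so p-values measure only the spread between these arrays.

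The tapetum is the innermost cell layer of the anther wall. It encloses the developing microspores, feeds them, makes the precursors of the outer pollen wall (the exine), and breaks down late in development to leave lipids and proteins on the pollen surface as the pollen coat. AMS (ABORTED MICROSPORES) is a basic helix-loop-helix transcription factor needed for tapetum function and microspore survival in *Arabidopsis*, and acts upstream of many genes of exine and pollen coat formation. A9 encodes a small secreted protein of the lipid transfer protein type, and its promoter is widely used to drive transgenes in the tapetum. ATA27, also called BGLU20, encodes a beta-glucosidase, an enzyme that removes glucose units from sugar conjugates, and was isolated as an anther transcript of the tapetum.

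The arrays already shared a scale, with a mean intensity near 100 on each after trimming 2% at both ends and medians from 51.35 to 59.5. TCP15 read 86 and 68.8 on the T14 arrays and from 188.2 to 244 on the other 6 arrays, HET included, so it does not check the HET label, and TCP14 was not analysed here. HET replicate 1 stood apart in the GAPDH control probe sets, with a 5'/3' signal ratio of 0.345. For the remaining 7 arrays this GAPDH ratio ran from 0.0639 to 0.129. Signal at the 5' end was thus the weaker one throughout, and it came closest to the 3' signal on HET replicate 1. Which arrays had the better RNA was not tested. Of 8 listed floral organ identity genes 0 had a named probe set, and of 8 meiosis genes 2 had one and neither passed the filter on low intensity, so the tissue is checked here only through tapetum and pollen genes.

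ATA27 had the largest log2 difference between group means of the 3 genes. Its intensity was 232.1 and 220.1 in T13, 62.9 and 71.9 in T14, 568.7 and 407.8 in HET, and 207.2 and 209.9 in CON. The 4 groups did not overlap. The HET arrays were highest, the T13 arrays came next, just above CON, and the T14 arrays were lowest. In a whole inflorescence, fewer tapetum cells and less RNA per tapetum cell cannot be told apart. The share of probe sets dimmer than ATA27 was 52.6% and 56.0% on the T14 arrays, 95.9% and 94.5% on the HET arrays, and 86.5% and 86.2% on the CON arrays.

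The group means of ATA27 were 226 ± 8.49 in T13, 67.4 ± 6.36 in T14, 488 ± 114 in HET and 209 ± 1.91 in CON (SD, n = 2 each). The ratio of mean intensities was 0.323 for T14 against CON and 2.34 for HET against CON. On the log2(intensity + 16) scale, which understates the change of dim genes, the differences from CON were 0.11 in T13, -1.43 in T14 and 1.15 in HET, each with an SE of 0.21 from the fit over all probe sets. The difference of T13 from CON was smaller than the residual SD of ATA27 between arrays of a group, 0.18, which pools all 4 groups. HET had the widest spread of them, and the T13 and CON arrays did not overlap. HET against T14 gave the largest of the 6 differences of ATA27, 2.58, with ratios between single arrays from 5.67 to 9.04. Without HET replicate 1, HET lay 0.92 above CON, and the remaining HET array still exceeded all 6 arrays of the other groups.

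A9 followed the same order of group means with a wider spread. Its intensity was 242.5 and 262.6 in T13, 30.5 and 119.1 in T14, 502.2 and 268.1 in HET, and 156.4 and 192.7 in CON. Again the groups did not overlap, with HET highest and T14 lowest. The separation of HET from T13 was narrow, since HET replicate 2 exceeded the higher T13 array by a ratio of only 1.02.

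The 2 arrays of T14 and of HET disagreed for A9. The means were 253 ± 14.2 in T13, 74.8 ± 62.6 in T14, 385 ± 166 in HET and 175 ± 25.7 in CON (SD, n = 2 each). The log2 differences from CON were 0.50 in T13, -1.26 in T14 and 1.02 in HET, each with an SE of 0.42. The differences of T13 from CON and of HET from T13, 0.50 and 0.52, were both below the residual SD of A9, 0.63. That SD pools all 4 groups and comes mostly from T14 and HET. The T13 and CON arrays had a smaller spread and did not overlap. The T14 value depended on the array: without T14 replicate 1 the difference from CON was -0.49, and without T14 replicate 2 it was -2.03. Without HET replicate 1 that of HET was 0.58. HET against T14 was 2.28, and from 1.51 without T14 replicate 1 to 3.05 without T14 replicate 2.

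AMS, the regulator, was dim and had another order. Its intensity was 45.3 and 47.4 in T13, 22.7 and 29.9 in T14, 39 and 44.9 in HET, and 23.6 and 23.8 in CON. All 4 arrays of T13 and HET were above all 4 arrays of T14 and CON, while T14 overlapped CON. Every one of these values was below the median of its array, and only the 4 T13 and HET arrays reached the 40th percentile. AMS thus passed the filter on low intensity through the groups where it was high, whereas A9 reached that percentile on 7 of 8 arrays and ATA27 on 8 of 8. No detection calls were used, so the share of the AMS signal that is background is not known.

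The AMS means were 46.4 ± 1.48 in T13, 26.3 ± 5.09 in T14, 42 ± 4.17 in HET and 23.7 ± 0.141 in CON (SD, n = 2 each). The ratio of mean intensities to CON was 1.96 in T13, 1.11 in T14 and 1.77 in HET. The log2 differences from CON were 0.65, 0.086 and 0.54 in that order of groups, each with an SE of 0.26. With a pseudocount of 1 in place of 16 the T13 and HET values were 0.94 and 0.79. T14 and CON were apart by less than the residual SD of AMS, 0.10, and HET lay 0.11 below T13, about that SD. The scanner's average background read 98.49 and 111.86 for T13, 84.9 and 85.12 for T14, 86.81 and 83.5 for HET, and 112.87 and 87.36 for CON. The AMS intensities of the 2 CON arrays were 23.6 and 23.8. With scanner background as a term in the fit, the differences of T13 and HET from CON were 0.65 and 0.54. That term rested mainly on CON and T13, the groups whose 2 arrays differed most in background, so nothing is read from it. The part of background in the AMS levels was not tested.

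**Figure D1:**
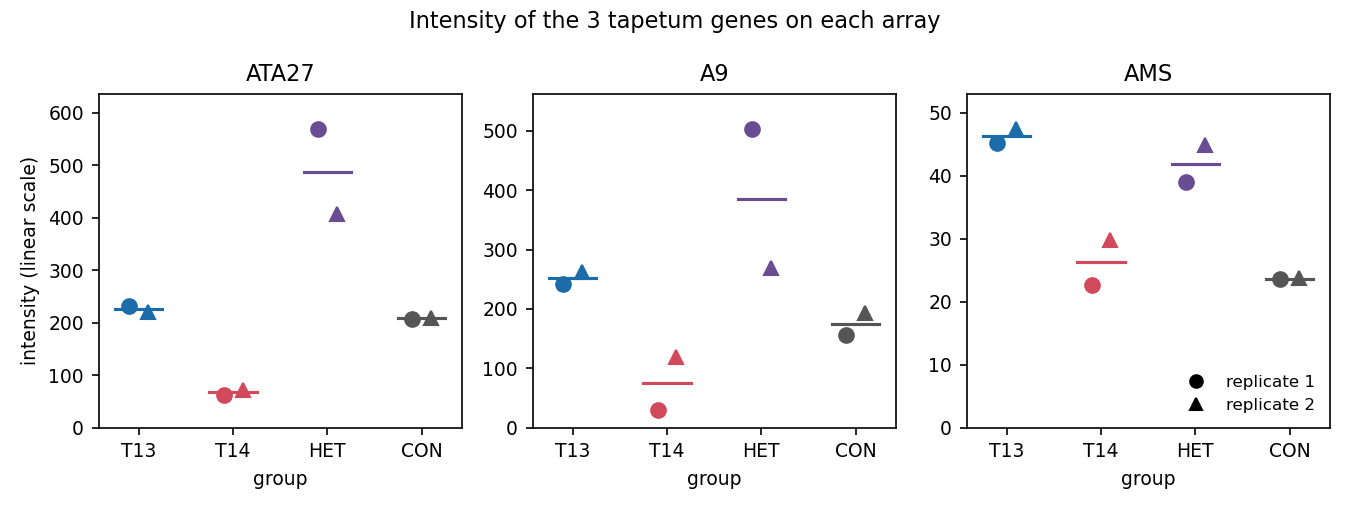
Intensity on a linear scale (vertical axis, starting at 0 and differing between panels) of ATA27, A9 and AMS on each of the 8 arrays, by group, with circles and triangles for replicates 1 and 2 and lines for group means. ATA27 and A9 are highest in HET and lowest in T14, while AMS is at 39 to 47.4 in T13 and HET and at 22.7 to 29.9 in T14 and CON.

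These separations can be set beside all 15045 probe sets that passed the filter, with 2 arrays in each group. In T13 against CON, 3 of 3 members had both arrays above both CON arrays, as did 22.5% of the probe sets. In T14 against CON, 2 of 3 members had both arrays below, as did 15.8%. In HET against CON, 3 of 3 had both above, as did 16.8%. The combined pattern of ATA27 and A9, T14 below and HET above CON, was found in 1.57% of the probe sets, and all T13 and HET arrays above all T14 and CON arrays, which holds for all 3 members, in 1.16%. The full order HET, T13, CON, T14 with no overlap was found in 0.120%, or 18 probe sets, ATA27 and A9 among them. The choice of members used these contrasts, so nothing is read from these shares.

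The ratios to CON were set side by side for the regulator and the late genes. In T13, AMS was 1.96 times its CON mean, A9 was 1.45 times and ATA27 1.08 times. In T14, AMS was 1.11 times its CON mean, and A9 and ATA27 were 0.429 and 0.323 times. AMS did not reach the 40th percentile on any CON or T14 array. Whether a lower AMS level in T14 could have been measured was not tested, and the ratios and differences that use AMS carry this limit. In HET all 3 were higher than in CON, by 1.77, 2.21 and 2.34 times for AMS, A9 and ATA27. Levels of different probe sets cannot be ranked against each other, so the late genes were set against AMS only as a difference of log2 values whose change between groups was followed.

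For ATA27 this difference was 2.02 and 1.90 in T13, 1.03 and 0.94 in T14, 3.41 and 2.80 in HET, and 2.49 and 2.50 in CON. At the pseudocount of the main fit the groups did not overlap: relative to AMS, ATA27 was lowest in T14, lower in T13 than in CON, and highest in HET. The change from CON was -0.54 in T13, -1.52 in T14 and 0.60 in HET, with a residual SD of 0.22. Without HET replicate 1 the HET value was 0.30, and with the GAPDH ratio as a term it was 0.25. The HET value also depended on the pseudocount, at 0.41 with a pseudocount of 1 and 0.69 with 32. Between single arrays, intensity ratios of HET to CON ran from 1.94 to 2.74 for ATA27 and from 1.64 to 1.90 for AMS. The excess of ATA27 over AMS in HET was thus small on some arrays.

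For A9 the difference was 2.08 and 2.14 in T13, 0.26 and 1.56 in T14, 3.24 and 2.22 in HET, and 2.12 and 2.39 in CON. T14 lay below CON on both arrays, while T13 and HET overlapped CON. The changes from CON were -0.15 in T13, -1.35 in T14 and 0.47 in HET, with a residual SD of 0.59, so T14 was apart from CON by more than that SD and the other 2 groups were not. Without HET replicate 1 the HET value was -0.035, and the T13 value was 0.083 once the GAPDH ratio entered the fit, so both changed sign. Without T14 replicate 1 the T14 value was -0.70.

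**Figure D2:**
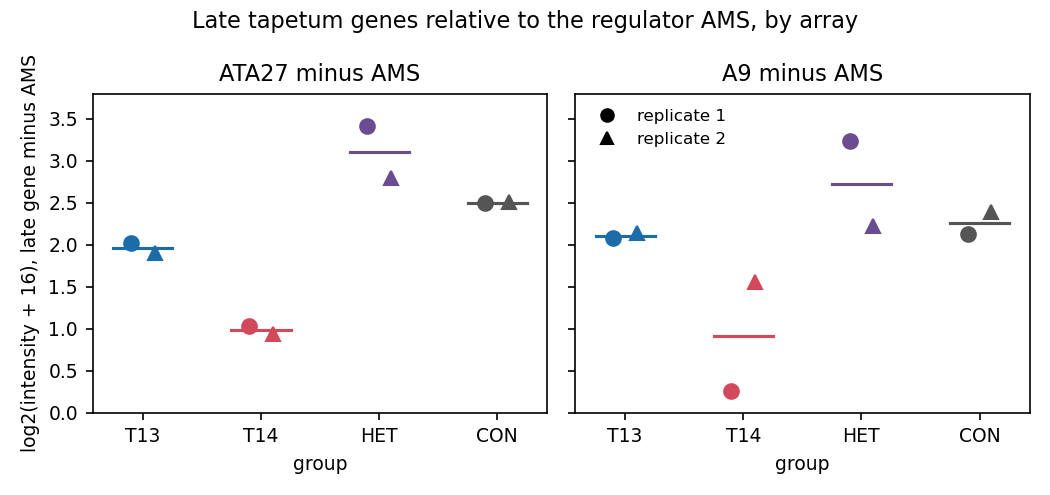
Difference of log2(intensity + 16) between each late gene and AMS (vertical axis) on each array, by group, with circles and triangles for replicates 1 and 2 and lines for group means. For ATA27 the 4 groups are separate, with 3.41 and 2.80 in HET at the top and 1.03 and 0.94 in T14 at the bottom. For A9, at this pseudocount of 16, only T14 is separate from CON.

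Across the 8 arrays ATA27 and A9 had a Pearson correlation of 0.902 and a Spearman correlation of 0.976. Without the 2 arrays farthest from the median of ATA27, both of T14, Pearson's value was 0.868. AMS had a correlation of 0.575 with ATA27 and 0.677 with A9. Without the 2 T14 arrays the value with ATA27 was 0.381. The value with A9 was 0.757 without T14 replicate 1 and HET replicate 1, the 2 arrays farthest from the median of A9. The arrays share groups and a common scale, so these values are descriptions only.

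The genes most like each member were sought among 1664 to 1665 probe sets of 1 gene that passed the filter and spanned at least 1 log2 unit over the 8 arrays. Closest to ATA27 were AT5G48210 (r = 0.989), AT1G68875 (0.962), sks18, of the multicopper oxidase-like SKU5 family (0.960), AT5G16920 (0.955) and AT1G30020 (0.949). AT5G48210 averaged 185 ± 5.23 in T13, 61.2 ± 3.75 in T14, 359 ± 85.8 in HET and 146 ± 18.6 in CON (SD, n = 2 each). Its order of groups was that of ATA27. A9 ranked 12th among the genes most like ATA27.

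Closest to A9 were AT4G14815, which encodes a protein of the same lipid transfer superfamily (r = 0.988), AT4G17010 (0.958), AT5G13380 (0.953), UPEX1 (0.947) and sks18 (0.947). AT4G14815 averaged 87.9 ± 5.66 in T13, 34.5 ± 25.1 in T14, 148 ± 50 in HET and 74 ± 0.636 in CON (SD, n = 2 each). Like A9, it had a wide spread in T14 and HET. The gene most like AMS was AT5G63135 (r = 0.947), at 87.5 ± 6.01 in T13, 50.5 ± 6.01 in T14, 81.5 ± 6.43 in HET and 41 ± 11.3 in CON. The next 4, AT4G11290, AT1G65180, AT1G28375 and AT5G57670, had correlations from 0.807 to 0.866. For AMS, ATA27 ranked 83rd and A9 ranked 42nd.

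**Figure D3:**
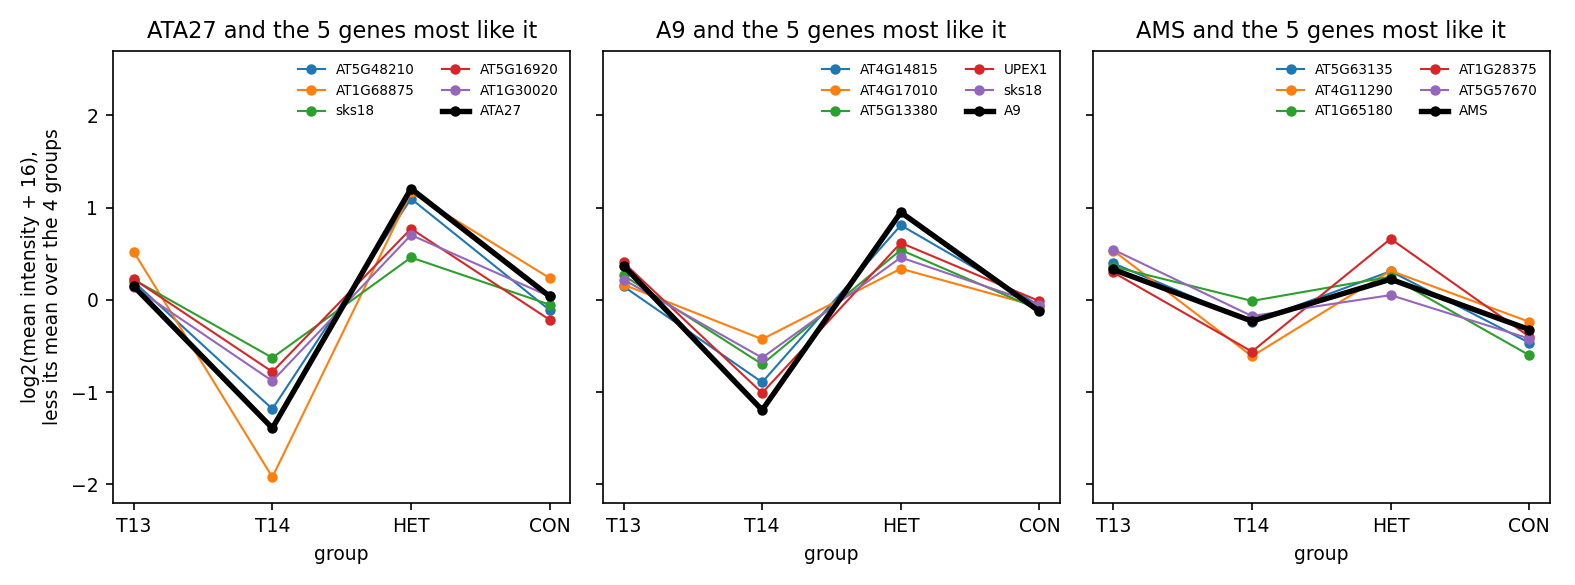
Group means of ATA27, A9 and AMS (black) and of the 5 genes with the highest Pearson correlation to each over 8 arrays (colours), as log2(mean intensity + 16) less its mean over the 4 groups (vertical axis). Lines join groups only to guide the eye. The genes most like ATA27 and A9 are lowest in T14 and highest in HET, and 4 of the 5 most like AMS have T13 highest.

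The other genes of the tapetum programme were taken from 3 lists, of regulators, of exine synthesis, and of late and pollen coat genes. Leaving aside the 3 members, 58 genes were listed, and a probe set of 1 gene was found for 15 of them. The filter was passed by 9. These 9 were tested. The lists were chosen with earlier results of these data known, so the direction of their genes is not independent evidence. In T14 all 9 had a lower mean log2 value than in CON, with a median difference of -0.62, against 0.027 over all 15045 probe sets. None was called at an adjusted p under 0.05 (limma), while 4 of the 9 had an unadjusted p under 0.05. Over all probe sets, T14 against CON called 0.0199% and gave an unadjusted p under 0.05 for 5.82%.

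In T13 against CON the median difference of the 9 genes was -0.13, against 0.051 over all probe sets, with 4 above and 5 below CON. In HET against CON it was 0.34, against 0.00231 over all, with 6 above and 3 below. Neither comparison called any of the 9 in limma (background 0.592% and 1.07%), and 0 and 1 of them had an unadjusted p under 0.05 (background 5.99% and 6.37%). T13 against T14 and HET against T13 also called 0 of the 9 (background 0.499% and 0%), with 4 and 1 at an unadjusted p under 0.05 (background 4.34% and 9.91%).

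HET against T14 was the comparison in which tapetum genes passed the test. There 2 of the 9 genes rose, UPEX1 and SHT, and all 9 had a positive difference, with a median of 1.04 against -0.028 over all probe sets. Over all probe sets 0.239% were called higher and 0.731% lower. UPEX1 (AT1G33430), a galactosyltransferase needed for the exine, read 675.2 and 582.5 in HET and 120.6 and 264.9 in T14. Its HET arrays were above both CON arrays, at 469.8 and 330.3, and its T14 arrays below both.

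UPEX1 averaged 629 ± 65.5 in HET and 193 ± 102 in T14 (SD, n = 2 each), a log2 difference of 1.72 (SE 0.32, limma adjusted p = 0.026). Among 17 alternatives 12 kept the call (range of the limma adjusted p 0.00724 to 0.559), which was lost with the GAPDH ratio in the fit (0.559), with no filter (0.109), and without T14 replicate 1, HET replicate 1 or HET replicate 2. The difference of UPEX1 from CON was -1.07 in T14 and 0.65 in HET, and neither passed.

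SHT (AT2G19070), a transferase that builds hydroxycinnamoyl spermidines of the pollen coat, read 145.6 and 90 in HET and 19.4 and 31.4 in T14, with 45.3 and 37.6 in CON. The HET arrays lay above both CON arrays and the T14 arrays below both. The HET mean of 118 ± 39.3 against 25.4 ± 8.49 in T14 (SD, n = 2 each) gave a log2 difference of 1.68 (SE 0.29, limma adjusted p = 0.0173). Here too 12 of 17 alternatives kept the call (range of the limma adjusted p 0.00799 to 0.999), which was lost with the GAPDH ratio in the fit (0.999), with no filter (0.107), with the 60th percentile filter (0.0569), and without T14 replicate 1 or HET replicate 1. Its difference from CON was -0.48 in T14 and 1.19 in HET, and neither passed. Of the 9 tapetum genes, 2, UPEX1 and SHT, had every T14 array below and every HET array above CON, as did 1.57% of all kept probe sets.

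The other late and coat genes had wide spreads. AT5G62080, a lipid transfer protein of the same type as A9, read 261.6 and 456.2 in T13, 60.8 and 204.9 in T14, 518.4 and 308.3 in HET, and 339 and 236 in CON. Its T14 arrays were the lowest of the 8, and its correlation with A9 was 0.936. HET against T14 gave 1.68 and did not pass (limma adjusted p = 0.154). Without T14 replicate 2 it was 2.44 and passed (limma adjusted p = 0.0137). AT5G52160, of the same type, had 1.04 in that comparison (limma adjusted p = 0.561).

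ATA27 lies next to a cluster of EXL genes, which encode extracellular lipases of the pollen coat. Among the 6 protein-coding genes before it on the chromosome, EXL1, EXL3 and EXL5 passed the filter. EXL5 read 124.6 and 68.1 in T13, 12.9 and 38.1 in T14, 102.2 and 82.5 in HET, and 96.7 and 39.8 in CON, with a HET against T14 difference of 1.45 (limma adjusted p = 0.15). EXL1 and EXL3 had 0.82 and 0.35 (limma adjusted p = 0.602 and 0.83). Over the 6 kept genes within 6 places on either side of ATA27, the T14 against CON differences ran from -1.004 to 0.0040. The HET against CON differences ran from -0.62 to 0.44. None was as far from CON as ATA27 in either group. That gene was chosen with its differences known, so nothing is read from this contrast.

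**Figure D4:**
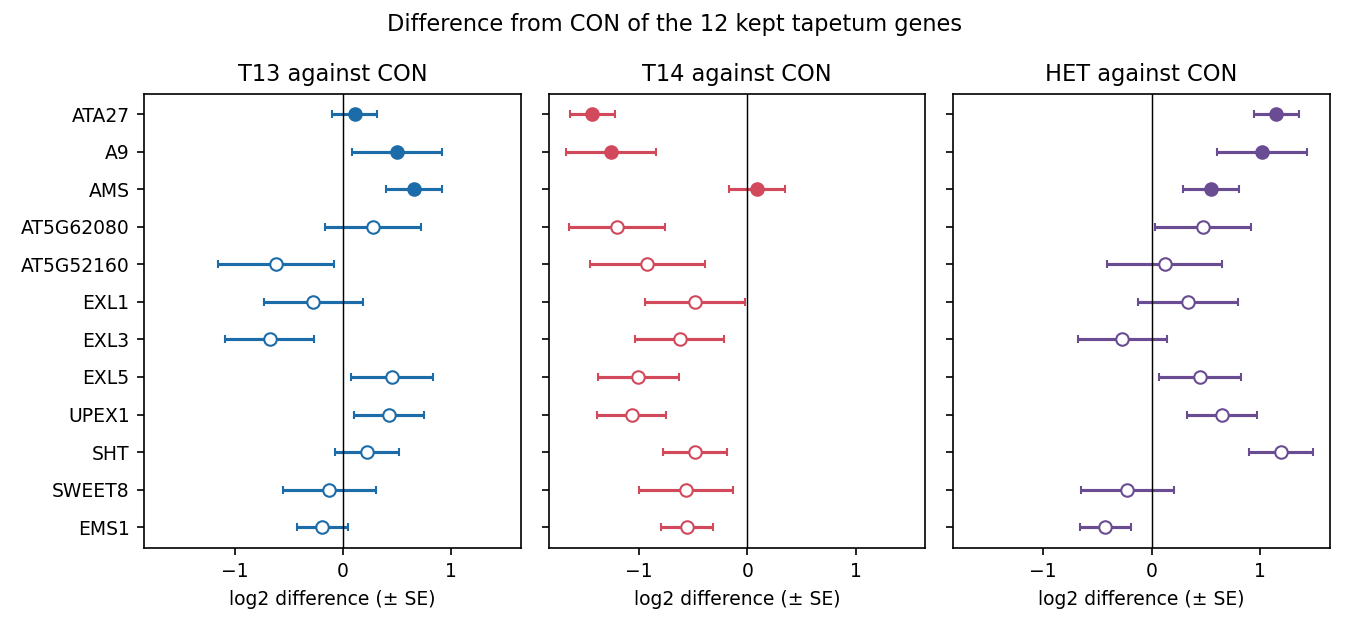
Log2 difference from CON (horizontal axis, log2(intensity + 16) scale) of the 12 tapetum genes that passed the filter, in T13, T14 and HET, with bars for the SE of the fit. Filled points are ATA27, A9 and AMS and open points the other 9. In T14 all but AMS lie below 0, and in HET ATA27, A9 and SHT lie above 1.

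Among the other regulators, EMS1, a receptor kinase that specifies the tapetum, was the 1 of 6 with a named probe set that passed the filter. Its mean difference from CON was -0.19 in T13, -0.55 in T14 and -0.43 in HET (limma adjusted p = 0.902, 0.816 and 0.906). The other 5 regulators, SPL, bHLH089, bHLH091, ROXY1 and ROXY2, read from 0.9 to 34.7 over the 8 arrays and were not tested. SWEET8, a sugar transporter needed for the exine, had a HET against T14 difference of 0.34 (limma adjusted p = 0.843).

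The 2 T14 arrays differed in the signal of single tapetum genes, in both directions. Of the 9 other tapetum genes, 7 were lower in replicate 1 than in replicate 2, as were 52.1% of all kept probe sets. The intensity of replicate 1 over that of replicate 2 was 0.256 for A9, 0.297 for AT5G62080, 0.455 for UPEX1 and 0.875 for ATA27, but 4.51 for EXL1 and 2.85 for EXL3. ATA27 was thus low to a like extent on both arrays.

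ATA27 belongs to a large family of beta-glucosidases. Of the 21 other members with a named probe set, 10 passed the filter and 0 were called in any of the 6 comparisons (limma, background 0% to 1.07%). In limma 1 to 3 had an unadjusted p under 0.05 in 5 of the comparisons and 0 in T13 against T14 (background 4.34% to 9.91%). The differences of these 10 from CON ran from -0.33 to 0.76 in T14 and from -0.36 to 0.60 in HET. Those of ATA27 were -1.43 and 1.15. ATA27 was chosen with its differences known, so nothing is read from this contrast. The 4 with the smallest F test p were BGLU46, BGLU45, BGLU44 and BGLU15. BGLU46 and BGLU45 had HET against T14 differences of -0.91 and -0.76 (limma adjusted p = 0.426 and 0.401). BGLU44 and BGLU15 had -0.019 and -0.55 (limma adjusted p = 0.991 and 0.444).

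Pollen transcripts differed between the groups as well. The summed intensity of the 9 named genes of 30 in the pollen list was 417.5 and 462.4 in T13, 1149.5 and 1770.3 in T14, 304 and 276 in HET, and 1738.5 and 1822.2 in CON, and no gene of the 9 was at 0 on any array. Pollen signal was thus low in T13 and HET, where AMS was high. Of the 6 that passed the filter, 4 fell in T13 (background 0.585% lower), 5 in HET (background 1.02% lower) and 0 in T14 against CON (limma, with 0 at an unadjusted p under 0.05). Some of these genes were listed because they had fallen on these arrays, so their direction is not independent evidence. The pollen summed signal of T14 replicate 1 was also below that of replicate 2. The part of pollen content in the levels of ATA27, A9 and AMS was not tested.

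The pectinesterase AT3G17060 of that list read 7.2 and 26.7 in T13, 144.8 and 156.1 in T14, 10.6 and 7.3 in HET, and 141.2 and 156 in CON. It was low in the groups where AMS was high, and at the CON level in T14, where ATA27 was low. The other pollen genes with the smallest F test p were the pectinesterase AT5G07420 and the polygalacturonases AT3G07820 and AT5G48140, enzymes that act on pectin, with HET against CON differences from -2.73 to -2.69.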

How the data were processed

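RNA of 8 inflorescence samples was measured on Affymetrix ATH1 arrays. The authors deposited a table of linear intensity values, 1 for each of 22810 probe sets on every array. How it was summarised from the scans is not stated in the sources used. Trimmed means were equal between arrays, so the deposited intensity values were not scaled again. Names came from the platform annotation through Entrez identifiers to a RefSeq table of TAIR10.1. A single gene was given for 13513 probe sets and several for 503, and 8794 stay unnamed. Coordinates are left out, since no build is named in the files.

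Tests used log2(intensity + 16) with limma 3.58.1 in R 4.3.3 (lmFit, eBayes with an intensity trend), all 8 arrays sharing 1 estimate of the spread (4 residual and 7.39 prior degrees of freedom). Probe sets at or above the 40th percentile on at least 2 arrays were kept, which left 15045 without the 64 control probe sets. P-values were adjusted by Benjamini and Hochberg within each of 6 comparisons over all kept probe sets, and calls were made at 0.05. The fit was tested on simulated data. The number of arrays limits the precision.

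The members and lists were chosen with earlier results of these data known. Named were the 3 members, every kept gene of the 3 tapetum lists, TCP15 and the GAPDH controls, up to 4 kept genes with the smallest F test p of the pollen, meiosis and floral organ lists and the beta-glucosidase family (BGLU as symbol or synonym), and the 5 genes most correlated with each member. The 5 dim regulators fall outside this rule and were named after their values were seen. The alternatives were pseudocounts of 1 and 32, no filter or one at the 60th percentile, median centring, quantile normalization, fits of the 2 groups compared, scanner background and the GAPDH ratio as terms, and leaving out each array. Figures were drawn with matplotlib 3.10.9.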

Additional observations from a re-analysis of the deposited data

Results flagged for a closer look

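For 4 tapetum genes, every T14 array lay below and every HET array above both CON arrays, so that the difference from CON ran in opposite directions in the 2 groups. HET against T14 gave a log2 difference of 2.58 for ATA27, with 1.15 in HET and -1.43 in T14 against CON. It gave 2.28 for A9, with 1.02 in HET and -1.26 in T14. With single arrays left out, these 3 values of A9 ran from 1.51 to 3.05, from 0.58 to 1.45 and from -2.03 to -0.49. For these 2 genes, which were chosen for their levels, the difference was not tested. For UPEX1 it was 1.72 (limma adjusted p = 0.026) and for SHT 1.68 (limma adjusted p = 0.0173), which is the test of the difference between the effects in HET and T14. Both calls were lost with the GAPDH ratio in the fit, with no filter, and without T14 replicate 1 or HET replicate 1. Neither gene passed against CON: UPEX1 had 0.65 in HET (limma adjusted p = 0.848) and -1.07 in T14 (0.69), and SHT had 1.19 in HET (0.123) and -0.48 in T14 (0.852). Among all 15045 kept probe sets, 1.57% had this pattern. Groups of 2 arrays are too small for a test of single outlying arrays.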

How the results depend on the processing

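No paired analysis was possible because the labels give the arrays no shared replicate numbers. The differences of ATA27, A9 and AMS from CON kept their direction in 14 alternatives each, except AMS in T14 against CON, which turned in 1. Leaving out an array of a group not compared cannot change a difference, so those alternatives were bound to keep it. The differences moved by more than the residual SD as follows. With a pseudocount of 1, AMS gave 0.94 in T13 and 0.79 in HET, ATA27 gave -1.62 in T14, and ATA27 relative to AMS gave -0.82 in T13 and -1.75 in T14. With a pseudocount of 32, AMS gave 0.49 in T13 and 0.41 in HET. With the GAPDH ratio as a term, HET against CON gave 0.66 for AMS, 0.92 for ATA27 and 0.25 for ATA27 relative to AMS.

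Leaving out each array in turn, HET against CON ran from 0.92 to 1.38 for ATA27 and from 0.30 to 0.91 for ATA27 relative to AMS. T14 against CON ran from -2.03 to -0.49 for A9, from -1.99 to -0.70 for A9 relative to AMS, and from -0.037 to 0.21 for AMS. AMS in HET against T13 turned its sign in 2 alternatives.

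Of the 9 other tapetum genes, 0 were called in HET against T14 without the filter or with the GAPDH ratio as a term, and 1 with the 60th percentile filter (UPEX1), against 2. Leaving out single arrays gave 0 to 3. Without the filter 15 of these genes were tested among all probe sets. HET against CON gave 1 (SHT) with only those groups fitted, and T13 against T14 gave 0 to 1 when single arrays were left out. Signs that turned were all of genes that did not pass. In HET against T14, leaving out single arrays gave EMS1 -0.11 to 0.37, SWEET8 -0.29 to 0.98 (both lowest without T14 replicate 1) and EXL3 -0.36 to 1.06 (lowest without T14 replicate 2), and EXL1 gave -0.063 with the GAPDH ratio as a term. In T14 against CON it gave EXL1 -1.23 to 0.26 and EXL3 -1.33 to 0.086 (both highest without T14 replicate 2), and SWEET8 -1.20 to 0.072 (highest without T14 replicate 1). The causes were not tested.

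Over all kept probe sets, calls ranged over 17 alternatives from 15 to 108 in T13 against CON (89), 0 to 10 in T14 against CON (3), 52 to 206 in HET against CON (161), 0 to 80 in T13 against T14 (75), 0 to 2 in HET against T13 (0, with 1491 at an unadjusted p under 0.05 in limma) and 0 to 155 in HET against T14 (146).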
